A study of Mus musculus with 6 samples.

Results

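Adhesion G protein-coupled receptors are cell-surface proteins that join a long extracellular region to a membrane-spanning receptor domain. Described here are 10 genes of this family, given under the older symbols that the array annotation uses: Gpr128 (now Adgrg7), Gpr56 (Adgrg1), Gpr110 (Adgrf1), Gpr116 (Adgrf5), Gpr126 (Adgrg6), Gpr64 (Adgrg2), Gpr97 (Adgrg3), Lphn1 (Adgrl1), Lphn2 (Adgrl2) and Lphn3 (Adgrl3). All 10 were measured, among 21740 genes with 1 symbol. The set was chosen by the large changes of Gpr128 and Gpr56 between the sampled days, so the changes of the 10 genes are given as a description and without a test.

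The samples were luminal epithelium, the inner lining of the uterus, from pregnant mice at gestation day 4.5 (D4.5, 3 arrays), when implantation sites were visible, and at gestation day 3.5 (D3.5, 3 arrays), when the uterus held free blastocysts. All females were wild type on a mixed C57BL6/129svj background, 2 to 4 months old, naturally mated, and sampled shortly before noon. Sheets of epithelium were freed with dispase and gentle scraping, and 1 µg of total RNA per array was labelled for one-colour Affymetrix arrays. Whether each array holds 1 female or a pool is not stated, so SDs and p-values measure the spread between these arrays, which may be technical. Among genes with 1 row, 5 to 24 had exactly equal values in a pair of D4.5 arrays, 356 to 1092 in a pair of D3.5 arrays and 0 in a pair across the days.

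Many adhesion receptors cut themselves between the extracellular region and the receptor domain, and the newly exposed end can then act as a built-in agonist when a ligand or a pull on the extracellular part uncovers it. Their ligands are often matrix proteins or membrane proteins of neighbouring cells, so the family is studied for its part in cell attachment, polarity and tissue shape. At implantation the luminal epithelium is the layer to which the embryo first attaches.

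Levels below are log2(intensity + 16) after quantile normalization, and changes are log2 differences of D4.5 minus D3.5 ± SE unless a fold is named. As a yardstick for weak signal, 1340 genes for chemosensory receptors (smell, taste and pheromone receptors), genes of the sensory organs, had 95% of their mean levels at or under 6.36 on D4.5 and 6.55 on D3.5. The central 95% of their changes ran from -0.59 to 0.33. Of these 1340 genes, 78 passed limma's adjusted p of 0.05 as higher on D4.5 and 325 as lower, 3 of them past 2-fold. Over all 21740 genes the counts were 3914 higher and 5737 lower. A call alone therefore also occurs at weak signal. A level at or under the 95th percentile of a day is called the level of chemosensory genes. All 10 epithelial markers, among them Cdh1 and Epcam, lay above it on both days. Of these 10, 2 passed as higher and 2 as lower on D4.5, among them Krt19, lower by 3.03-fold. Markers of other cells were also detected, with 7 of 8 stromal, 7 of 8 endothelial and 6 of 9 leukocyte genes above that level on both days. The same held for 4 of 6 smooth muscle, 1 of 4 gland, 2 of 4 granulocyte and 2 of 7 trophoblast genes. The epithelial list averaged 10.61 to 10.72 on the D4.5 arrays and the stromal list 7.26 to 8.64. The stromal gene Vim (10.09 on D4.5, 10.31 on D3.5) nonetheless stood near Epcam (10.24 and 10.11). The median change of all genes was -0.07, and -0.40 in the values as deposited. Of the genes past both an adjusted p of 0.05 and 2-fold, 660 were higher and 535 lower on D4.5. Median centring of the arrays gave 1276 higher of 1572, and the values as deposited gave 504 of 1556.

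Gpr128 and Gpr56 moved furthest among the 10 genes, and in opposite directions. The promoter sequences of the pair are shown because their genes carry the contrast described below. They come from the RefSeq table of build GRCm38.p6, each running from 250 bases before to 50 bases after an annotated start, on the strand of the gene, and 1 such window was listed for Gpr128 and 2 for Gpr56. Capitals mark GGGCGG or its reverse complement CCGCCC, the letters of the GC box.
Gpr128 (Adgrg7), chr16:56795809-56796108, minus strand: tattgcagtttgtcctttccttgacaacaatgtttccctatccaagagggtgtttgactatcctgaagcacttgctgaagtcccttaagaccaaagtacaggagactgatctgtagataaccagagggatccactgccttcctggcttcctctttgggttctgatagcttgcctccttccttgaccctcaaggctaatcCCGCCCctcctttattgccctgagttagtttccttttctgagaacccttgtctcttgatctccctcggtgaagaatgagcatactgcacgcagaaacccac
Gpr56 (Adgrg1), first window, chr8:94976859-94977158, plus strand: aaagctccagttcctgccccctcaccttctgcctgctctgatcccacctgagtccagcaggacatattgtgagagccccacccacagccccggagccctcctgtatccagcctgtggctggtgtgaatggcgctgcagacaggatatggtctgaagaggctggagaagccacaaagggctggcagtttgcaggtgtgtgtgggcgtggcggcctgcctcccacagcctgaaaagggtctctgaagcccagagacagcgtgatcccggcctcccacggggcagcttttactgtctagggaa
Gpr56 (Adgrg1), second window, chr8:94984149-94984448, plus strand: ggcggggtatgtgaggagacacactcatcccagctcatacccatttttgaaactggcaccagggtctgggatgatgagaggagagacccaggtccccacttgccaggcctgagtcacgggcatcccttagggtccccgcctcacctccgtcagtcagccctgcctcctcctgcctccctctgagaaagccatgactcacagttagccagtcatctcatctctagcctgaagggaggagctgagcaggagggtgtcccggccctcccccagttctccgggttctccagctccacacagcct

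Both strands of these windows were searched for GGGCGG, for TATAAA (the core of a TATA box) and for AGAACA. The last holds the half-site letters of some steroid hormone response elements, not those of oestrogen. The Gpr128 window held GGGCGG 1 time, and neither other motif; the 2 Gpr56 windows held none of the 3. Over 32851 promoter windows of the same length, 35.7% held GGGCGG, 13.6% TATAAA and 19.0% AGAACA. A match is a description only. The windows held 3 CG steps in Gpr128 and 7 and 6 in Gpr56, beside a median of 7 over all windows. Among the other members the windows of Lphn3 (40, 21 and 20 steps), Gpr126 (38), Gpr64 (30) and Lphn1 (28) held most, and those of Gpr110 (2), Lphn2 (4), Gpr97 (7) and Gpr116 (8 in each of 2) held fewer.

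Gpr128, an orphan receptor best known from the intestinal epithelium, had a strong signal before implantation that was lost on D4.5. Its deposited intensity was 52.6, 54.3 and 47.2 on the D4.5 arrays, against 1158, 941 and 1733 on the D3.5 arrays. After normalization its level was 6.37, 6.38 and 6.21 on D4.5, against 10.48, 9.84 and 10.69 on D3.5. Every D4.5 array thus lay more than 3 log2 units below every D3.5 array, and the D4.5 mean of 6.32 ± 0.09 (SD, n = 3) was at the level of chemosensory genes. The change was -4.02 ± 0.20, a 16.2-fold lower value on D4.5. Because the D4.5 signal was at that floor, its size depended on the constant added before the logarithm, being -3.39 with 64 and -4.31 with 1 in place of 16. In epithelial sheets taken as bulk RNA, fewer cells that use a gene and less RNA per cell cannot be told apart, here or for any gene below.

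Gpr56, a receptor for collagen III and tissue transglutaminase that signals to RhoA and is best known from cortical development and myelination, went the other way. Its level was 10.70, 11.01 and 10.70 on D4.5, against 8.54, 8.65 and 8.55 on D3.5. The days did not overlap, and the change was 2.23 ± 0.10 (4.68-fold), with SDs of 0.18 on D4.5 and 0.06 on D3.5. Its signal was above the level of chemosensory genes on both days. The change of Gpr56 ranged from 2.09 to 2.69 over all alternative settings.

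Of the latrophilins, receptors first found through the spider toxin latrotoxin and known to bind teneurins and FLRT proteins on other cells, Lphn2 and Lphn3 were higher on D4.5. Lphn3 had levels of 9.05, 9.02 and 9.34 on D4.5, against 7.37, 8.23 and 8.31 on D3.5. Its D3.5 replicate 1 stood well below the other D3.5 arrays, yet the days did not overlap. The change was 1.17 ± 0.24 (2.25-fold), and 0.87, under 2-fold, without D3.5 replicate 1.

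Lphn2 averaged 8.69, 8.30 and 8.59 on D4.5, against 7.43, 7.38 and 7.29 on D3.5, a change of 1.16 ± 0.11 (2.23-fold) with no overlap of the days. This value rests on 8 rows of the deposited table that carry the symbol Lphn2. Their mean intensities ran from 104.9 to 1146.5 on D4.5 and from 72.6 to 429.6 on D3.5, but rows that share a symbol do not correspond between the days. Over 5076 such rows, each taken relative to its symbol mean, the correlation was -0.006 to 0.005 between arrays of different days and at least 0.944 between arrays of a day. Which Lphn2 probe sets differed is therefore not known. With the median of the 8 rows in place of the mean, an alternative added after seeing the data, the change was 1.20. It was under 2-fold in the values as deposited (0.97) and with a constant of 64 (0.95). Lphn1, measured by 2 rows, had levels of 7.22, 6.98 and 6.82 on D4.5, against 7.08, 7.27 and 7.07 on D3.5. Its days overlapped, with a change of -0.14 ± 0.11.

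Gpr110, a receptor for the lipid synaptamide in neurons, was weakly detected and somewhat higher on D4.5. Its level was 6.48, 6.33 and 6.37 on D4.5, against 5.62, 5.85 and 5.70 on D3.5. The days did not overlap, and the signal lay just above the level of chemosensory genes on D4.5 and at it on D3.5. The change was 0.67 ± 0.08. In the values as deposited it was 0.19. Gpr97, a receptor of immune cells that binds glucocorticoids, stood at 6.59, 6.58 and 6.79 on D4.5, against 7.11, 6.99 and 7.02 on D3.5. Its change of -0.38 ± 0.08 lay within the range of changes of chemosensory genes, although the arrays of the days did not overlap.

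Gpr116, the receptor that holds lung surfactant in balance and is also made by endothelial cells, varied most within D4.5. Its level was 8.28, 7.62 and 7.21 on D4.5, against 7.96, 8.33 and 8.48 on D3.5. The days overlapped because D4.5 replicate 1 lay among the D3.5 arrays, and the change was -0.55 ± 0.26. Without D4.5 replicate 1 it was -0.84. Gpr126, which Schwann cells need for myelination, stood at 7.09, 6.97 and 6.68 on D4.5, against 6.68, 6.96 and 6.74 on D3.5, a change of 0.12 ± 0.12. Gpr64, known from fluid uptake in the male efferent ducts, stood at 6.63, 6.45 and 6.12 on D4.5, against 6.62, 6.42 and 7.13 on D3.5, a change of -0.32 ± 0.20. The arrays of both genes overlapped between the days. In the values as deposited Gpr126 had a change of -0.28, so its direction depended on scaling, and Gpr64 stood at -0.78 and Lphn1 at -0.49.

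**Figure D1:**
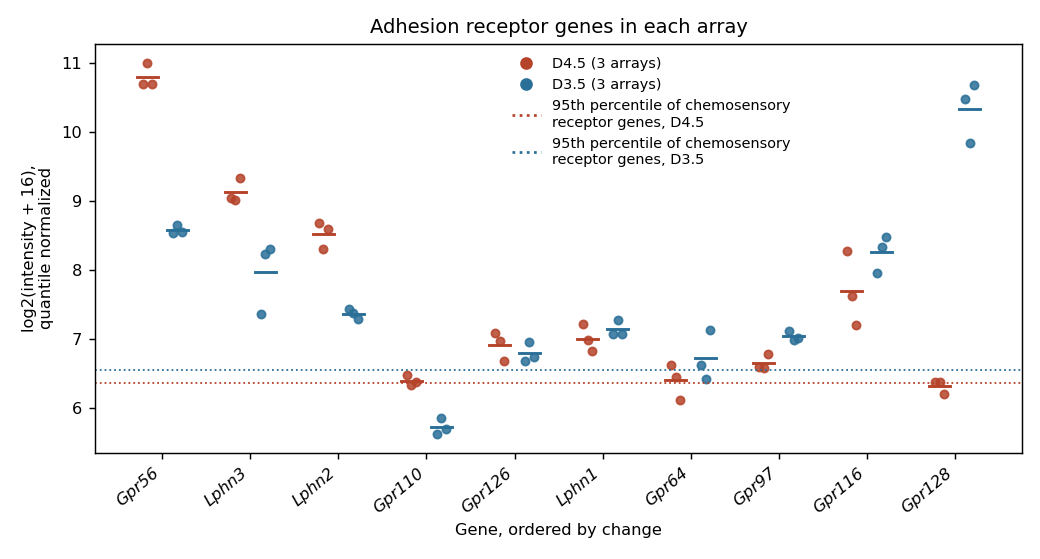
Each point is 1 array, in log2(intensity + 16) after quantile normalization, for the 10 genes ordered by their change, with D4.5 left of D3.5 and bars at the means of 3 arrays; dotted lines are the 95th percentiles of chemosensory receptor genes (6.36 on D4.5, 6.55 on D3.5). Gpr56, Lphn3, Lphn2 and Gpr110 have all D4.5 points above the D3.5 points, Gpr128 and Gpr97 have them all below, and Gpr128 meets the dotted line on D4.5.

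Counted over the set, the arrays of the days did not overlap in 4 genes higher on D4.5 (23.4% of all genes tested) and 2 lower (35.2%). The same 6 genes passed limma's adjusted p of 0.05 in the fit over all genes, 4 of them higher (18.0% of all genes) and 2 lower (26.4%). Past 2-fold as well were Gpr56, Lphn2 and Lphn3 as higher (3.04% of all genes) and Gpr128 as lower (2.46%). The set was chosen by this comparison, so nothing is read from these counts. The median change of the 10 genes was -0.01.

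Patterns over the 6 arrays were compared by Euclidean distance among 17961 genes with a current RefSeq symbol. The distance takes in level as well as change, and levels of different probes are not strictly comparable. Nearest to Gpr128 were Slc24a4, a sodium, potassium and calcium exchanger (distance 1.25, change -3.05 ± 0.27), Pla2g10, a secreted phospholipase (1.25, -3.23 ± 0.14), and B3gnt5, which builds glycolipid chains (1.54, -3.22 ± 0.27). Nearest to Gpr56 were the steroid reductase gene Srd5a1 (distance 0.42, change 1.98 ± 0.16), Reep4, which keeps endoplasmic reticulum off chromosomes in mitosis (0.57, 1.80 ± 0.07), and Gpam, an enzyme of glycerolipid synthesis (0.59, 1.82 ± 0.12).

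The remaining adhesion receptors gave a wider view of the family. Of 21 further genes, 20 were measured. In the limma fit 3 of these rose, 7 fell and 10 did not pass, so that 50.0% passed beside 44.4% of all genes. Their median change was -0.13 beside -0.07 for all genes. The one change past 2-fold was in Gpr125 (now Adgra3), a receptor linked to planar cell polarity. Gpr125 stood at 8.69, 8.79 and 8.75 on D4.5, against 7.24, 7.35 and 7.21 on D3.5, and rose by 1.48 ± 0.07 (2.79-fold, adjusted p = 1.61e-05). The gap between the days was wider than the spread within either.

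The Celsr genes, whose products align neighbouring epithelial cells in the plane of the sheet, did not move as one. Celsr1 stood between 9.68 and 9.97 on D4.5, against 9.90 to 10.12 on D3.5, with overlapping days (-0.13 ± 0.10, adjusted p = 0.333). Celsr2 fell by 0.58 on the log2 scale (SE 0.08, adjusted p = 0.00116), a call that median centring removed (-0.14). This fall lay within the range of changes of chemosensory genes. Celsr3 rose by 0.57 ± 0.11 (adjusted p = 0.00522), and in the values as deposited it stood at 0.19 without a call. None of these 3 pairwise differences between genes was tested.

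Small falls were also called. Gpr123, Bai1, which recognises dying cells, and its relative Bai2 changed by -0.33 to -0.48 (adjusted p between 0.0049 and 0.0364). These sizes lay within the range of changes of chemosensory genes. Bai2 did not pass with median centring, and Bai1 and Bai2 each lost their calls without D4.5 replicate 1 (-0.41 and -0.28) or without D4.5 replicate 2 (-0.47 and -0.31); Bai2 also lost its call without D3.5 replicate 2 or 3. Gpr112 and Gpr98 also passed as lower, at the level of chemosensory genes on both days; Gpr98 lost its call without D3.5 replicate 3 or D4.5 replicate 1 or 2 (-0.22 to -0.27). Gpr133 lay above that level on D4.5 alone, at 6.40 to 6.52 on D4.5 against 6.47 to 6.54 on D3.5 (-0.03 ± 0.07, adjusted p = 0.76).

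**Figure D2:**
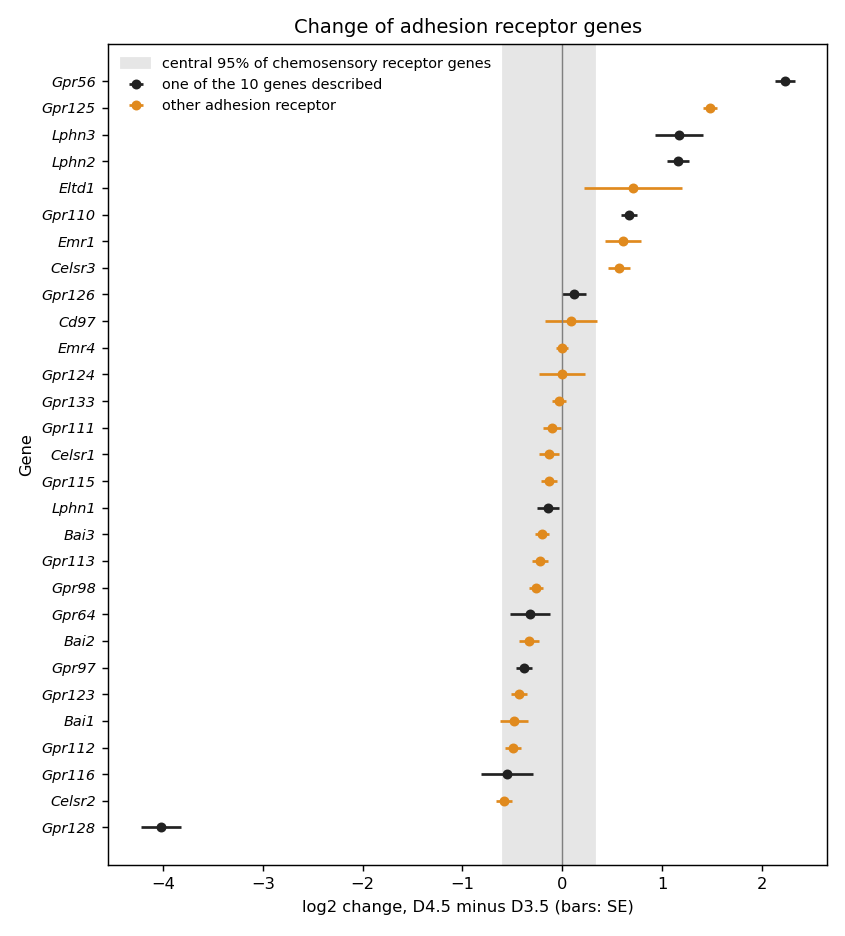
Change in log2 level of D4.5 minus D3.5 with SE bars (n = 3 arrays a day) for adhesion receptor genes; black points are the 10 genes described, orange points other family members, and the grey band spans the central 95% of changes of chemosensory receptor genes (-0.59 to 0.33). Gpr128 lies far left of the band at -4.02, and Gpr56, Gpr125, Lphn3 and Lphn2 lie right of it beyond 1.

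Several members lie next to another family gene on the chromosome, by the gene order of RefSeq build GRCm38.p6. Gpr56 lies next to Gpr97 on chromosome 8. The pair had changes of opposite sign, 2.23 for Gpr56 and -0.38 for Gpr97. Gpr128 lies between Tfg (0.20 ± 0.07, adjusted p = 0.0601) and Tmem45a (-0.59 ± 0.22, adjusted p = 0.0646) on chromosome 16, neither of which passed the test. Gpr110 and Gpr116 are adjacent on chromosome 17 and had changes of opposite sign (0.67 ± 0.08 and -0.55 ± 0.26), but the days of Gpr116 overlapped. Lphn2 lies next to the family gene Eltd1 on chromosome 3. Both changes were positive (1.16 ± 0.11 and 0.71 ± 0.49), with overlapping days for Eltd1. Lphn1 lies next to the family gene Cd97 on chromosome 8, and the days of both overlapped (-0.14 ± 0.11 and 0.09 ± 0.26). The differences between neighbours were not tested.

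The next question was how known ligands and partners of these receptors behaved in the same arrays. Of 31 such genes measured, 6 rose, 4 fell and 21 did not pass, so that 32.3% passed beside 44.4% of all genes. Their median change was -0.10 beside -0.07 over all genes. The largest rise was that of Sftpd, which encodes surfactant protein D, a ligand of Gpr116. Sftpd averaged 10.12 ± 0.12 on D4.5 and 7.69 ± 0.26 on D3.5 (SD, n = 3 each), without overlap, and in limma's fit rose by 2.43 ± 0.14 (5.41-fold, adjusted p = 2.69e-05). The days lay far apart, whereas the receptor itself overlapped between them.

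Tgm2, the tissue transglutaminase that binds Gpr56, rose alongside its receptor. Its level was 9.75, 10.10 and 9.54 on D4.5, against 8.04, 8.73 and 7.91 on D3.5, a rise of 1.57 ± 0.23 (2.97-fold, adjusted p = 0.00165) with no overlap. Cd81, a tetraspanin that associates with Gpr56, rose by 0.74 ± 0.10 (adjusted p = 0.00145), with 10.15 to 10.45 on D4.5 and 9.49 to 9.73 on D3.5. Its relative Cd9 overlapped between the days (0.37 ± 0.21, adjusted p = 0.188). Col3a1, the collagen III ligand of Gpr56 and a stromal gene, also overlapped, at 7.78 to 8.38 on D4.5 against 8.05 to 8.50 on D3.5 (-0.29 ± 0.18, adjusted p = 0.208).

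Ligands of other receptors were measured as well. Cd55, the complement regulator that binds the adhesion receptor Cd97, rose by 0.47 ± 0.07 (adjusted p = 0.00203). Fndc4, another ligand of Gpr116, had a change of 0.42 ± 0.19 (adjusted p = 0.107), and D4.5 replicate 1 at 8.30 stood above replicates 2 and 3 at 7.65 and 7.53. Of the teneurin genes, Odz2 (now Tenm2) fell by 0.37 on the log2 scale (SE 0.07, adjusted p = 0.0051), within the range of changes of chemosensory genes. Odz1 passed as lower too (-0.36 ± 0.09, adjusted p = 0.0146), at the level of chemosensory genes on both days, but not without D3.5 replicate 3 (-0.32). The levels of Odz3 (-0.10 ± 0.30) and Odz4 (0.10 ± 0.10) overlapped between the days. Unc5a, a netrin receptor, passed with -0.37 ± 0.10 (adjusted p = 0.0198), but not without D4.5 replicate 1 (-0.33) or replicate 2 (-0.38). Its change lay within the range of changes of chemosensory genes, and its D4.5 mean of 6.25 at their level. Of the FLRT genes, Flrt1 (0.15 ± 0.08, adjusted p = 0.183) did not pass. Flrt2 passed as higher (0.24 ± 0.07, adjusted p = 0.0268) and Flrt3 did not (0.15 ± 0.07), both at the level of chemosensory genes on both days. Flrt2 lost its call with median centring (0.17) and without D3.5 replicate 3 or any 1 of the D4.5 arrays (0.21 to 0.26), and its direction depended on scaling, being -0.26 in the values as deposited. For Gpr126, the ligand genes Col4a1 (-0.16 ± 0.14), Col4a2 (-0.30 ± 0.13), Lama2 (-0.26 ± 0.40) and Prnp (-0.05 ± 0.09) did not pass.

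**Figure D3:**
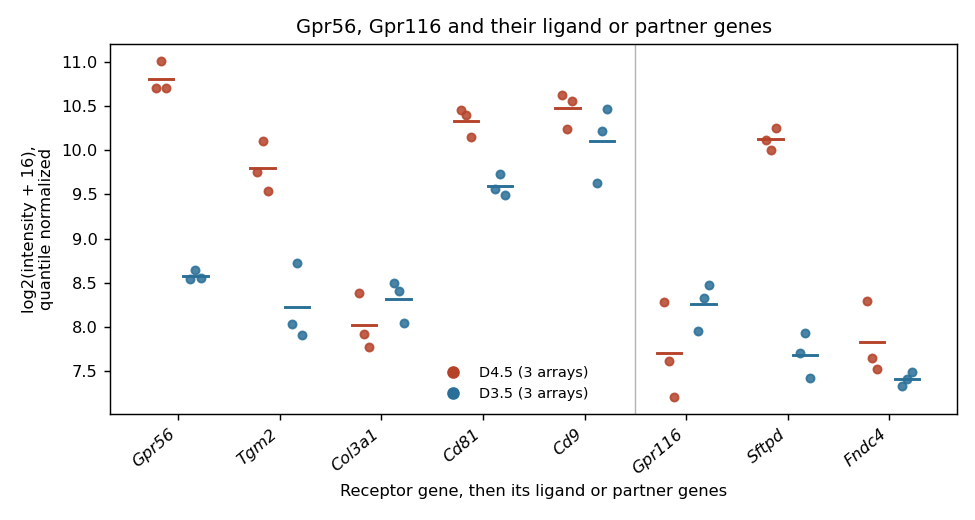
Level in each array, in log2(intensity + 16) after quantile normalization, of Gpr56 with its ligand or partner genes (left) and of Gpr116 with its ligand genes (right); D4.5 points stand left of D3.5 points, and bars are means of 3 arrays. Gpr56, Tgm2, Cd81, Sftpd and Fndc4 have all D4.5 points above the D3.5 points, while Col3a1, Cd9 and Gpr116 overlap.

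Adhesion receptors act through heterotrimeric G proteins, the RhoA pathway, cyclic AMP and, for some members, the ELMO and DOCK proteins that steer engulfment. Of 37 genes of this group 6 rose, 7 fell and 24 did not pass, so that 35.1% passed beside 44.4% of all genes, with a median change of 0.04. The balance depended on scaling, with 17 higher and 3 lower under median centring. Gnao1, a Gα subunit typical of neurons, fell to 6.22, 6.35 and 6.33 on D4.5, against 8.34, 8.31 and 8.59 on D3.5. The change was -2.11 ± 0.09 (adjusted p = 1.23e-05), and its D4.5 mean lay at the level of chemosensory genes. Gnai1, an inhibitory Gα subunit, rose to 7.86, 8.0 and 9.36 on D4.5, against 6.30, 7.04 and 6.26 on D3.5 (1.87 ± 0.40, adjusted p = 0.00841). Its D3.5 mean of 6.53 lay at the level of chemosensory genes, and its change was 1.46 with a constant of 64 and 2.07 with 1. Its D4.5 replicate 3 stood well above the other arrays of that day.

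Elmo1, the engulfment adaptor that Bai1 recruits, fell by 1.53 on the log2 scale (SE 0.22, adjusted p = 0.00159). Its level was 6.96, 6.61 and 6.10 on D4.5, against 8.28, 7.80 and 8.16 on D3.5. The lowest array, D4.5 replicate 3, was at the level of chemosensory genes, and without it the change was -1.29. Elmo3 changed by -0.83 ± 0.10 (adjusted p = 0.000848), with -0.43 and no call under median centring. Elmo2 (0.04 ± 0.10, adjusted p = 0.764) and Dock1 (0.16 ± 0.15, adjusted p = 0.419) did not pass. Adcy9, an enzyme that makes cyclic AMP, fell by 1.23 on the log2 scale (SE 0.09, adjusted p = 7.29e-05). The phospholipase C genes Plcb4 (0.85 ± 0.10, adjusted p = 0.000526) and Plcb1 (0.56 ± 0.07, adjusted p = 0.000971) rose, Plcb1 with no call in the values as deposited (0.07). Plcb1 averaged 6.40 on D4.5, just above the level of chemosensory genes, and 5.84 on D3.5, at that level. Arhgef1, a RhoA activator, passed with 0.29 ± 0.09 (adjusted p = 0.0358), a call lost whichever array other than D3.5 replicate 1 was left out (0.23 to 0.31). Rhoa itself (-0.09 ± 0.08, adjusted p = 0.387) and the G protein gene Gna12 (0.04 ± 0.09, adjusted p = 0.761) overlapped between the days. Arhgef11, a relative of Arhgef1, passed as lower (-0.54 ± 0.07, adjusted p = 0.00101), with no call under median centring (-0.08). Gna13 also passed as lower (-0.35 ± 0.09, adjusted p = 0.0166), but not under median centring (0.13) or without D4.5 replicate 2 (-0.28). Another relative, Arhgef12, passed as higher (0.28 ± 0.09, adjusted p = 0.0376), and its call was not followed over the alternative settings. The changes of Arhgef1, Arhgef11, Arhgef12 and Gna13 lay within the range of changes of chemosensory genes.

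Some receptors of the family are known from other cell types. Within D4.5 the values of Eltd1, Cd97 and Gpr124 had the same array order as the mean of markers of such cells. Gpr97, described above as a receptor of immune cells, did not (6.59, 6.58 and 6.79). Replicate 1 was highest and replicate 3 lowest in 4 of the 20 other receptors measured and in 4 of the 10 genes described. The share over all genes was not counted. Eltd1 (now Adgrl4), made by endothelial cells, stood at 7.88, 7.26 and 5.86 on D4.5, against 5.97, 6.88 and 6.01 on D3.5 (0.71 ± 0.49, adjusted p = 0.271), and it passed without D4.5 replicate 3 (1.28). Cd97, a leukocyte receptor, stood at 7.53, 7.07 and 6.55 on D4.5, against 6.77, 7.36 and 6.73 on D3.5. Gpr124 (now Adgra2), known from brain vessels, stood at 7.49, 7.21 and 6.68 on D4.5, against 7.01, 7.51 and 6.87 on D3.5. All 3 were highest in D4.5 replicate 1 and lowest in replicate 3 within that day, and highest in replicate 2 on D3.5.

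The 8 endothelial markers averaged 7.68, 7.18 and 6.58 on D4.5, against 7.01, 7.49 and 6.86 on D3.5, the same array order within D4.5, with replicate 2 again highest on D3.5. The 8 stromal markers averaged 8.64, 8.02 and 7.26 on D4.5, against 7.92, 8.30 and 7.78 on D3.5. The 9 leukocyte markers averaged 7.42, 7.08 and 6.88 on D4.5, and differed little on D3.5 (7.09, 7.13 and 6.98). Cd97 varied more on D3.5, from 6.73 to 7.36. Within D4.5, replicate 1 was highest and replicate 3 lowest in 8 of 8 stromal, 6 of 8 endothelial and 6 of 9 leukocyte markers. None of the stromal or endothelial markers passed limma's adjusted p between the days, and 0 did so at an unadjusted p of 0.05. Gpr116 followed this array order on D4.5 but not on D3.5, where replicate 3 was its highest array. The part of these cells in the values of Gpr116, Gpr126, Gpr64, Lphn1 and Elmo1, which had the same order on D4.5, was not tested.

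Emr1 (now Adgre1), which encodes the macrophage antigen F4/80, rose to 6.80, 6.40 and 6.00 on D4.5, against 5.69, 5.87 and 5.83 on D3.5 (0.61 ± 0.18, adjusted p = 0.0313). Its mean of 6.40 on D4.5 lay just above the level of chemosensory genes, and its mean of 5.80 on D3.5 at it. The call was lost without any 1 of 5 arrays, all but D4.5 replicate 3 (0.41 to 0.64), with a constant of 64 (0.36) and in the values as deposited (0.14). Of 9 leukocyte markers 1 rose and 1 fell. Csf1r, the macrophage growth factor receptor, rose by 0.76 ± 0.13 (adjusted p = 0.00365) from a D3.5 mean of 6.42, at the level of chemosensory genes. In the values as deposited its change was 0.36, without a call. The T cell gene Cd3e fell by 0.42 on the log2 scale (adjusted p = 0.0068), within the range of changes of chemosensory genes. The myeloid genes Lyz2 (-0.34 ± 0.31), Cd68 (0.13 ± 0.17) and Itgam (0.22 ± 0.12) did not pass. The list averaged 6.88 to 7.42 on D4.5 against 6.98 to 7.13 on D3.5.

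**Figure D4:**
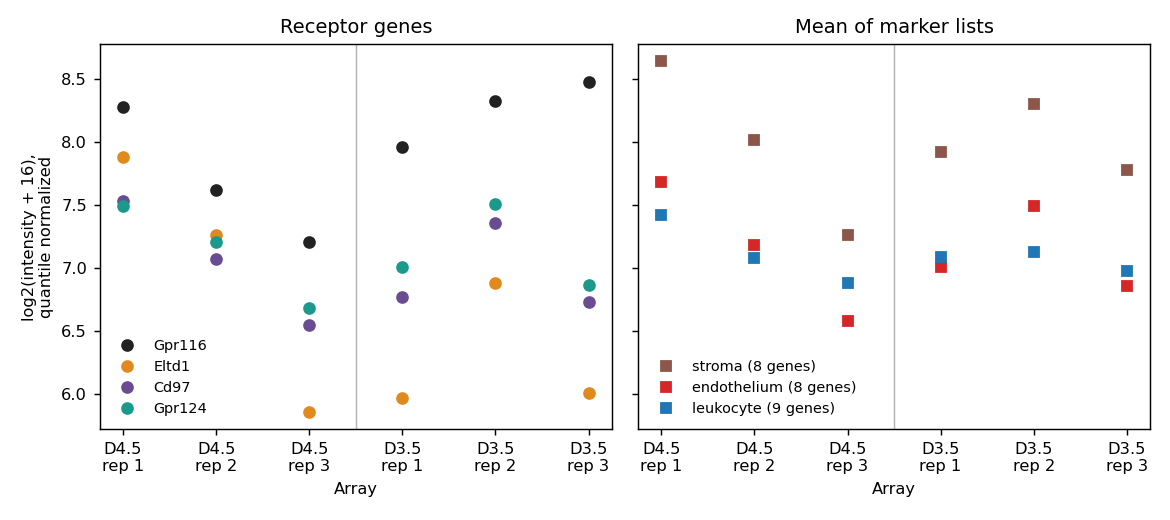
Left, level of Gpr116, Eltd1, Cd97 and Gpr124 in each array; right, mean level of the stromal, endothelial and leukocyte marker lists in the same arrays, all in log2(intensity + 16) after quantile normalization, with D4.5 arrays left of D3.5 arrays. Within D4.5 replicate 1 is highest and replicate 3 lowest in both panels, and on D3.5 Gpr116 departs from the marker lists.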

How the data were processed

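Uterine luminal epithelium was hybridised to 3 arrays per day. The authors deposited linear intensity values, with array medians of 78.9 to 80.2 on D4.5 and 108.6 to 118.4 on D3.5; which software, summary method and build they used is not given in the sources used here. Per the labels, cRNA was made by the Affymetrix protocol. A second deposited table held the same intensity values within 1e-06 on all but 1 row.

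Rows with exactly 1 symbol (25070 of 35556) gave 21740 genes, each the mean of its rows, because rows of a symbol are not paired between days. In windows of 295 and 211 rows around the members, day means correlated with 0.889 and 0.856 at matched rows and with at most 0.353 at rows displaced by 1 or 2. Since equal values occurred within days and in 0 genes across them, the day cannot be told apart from the processing of its arrays.

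Values were log2(intensity + 16), quantile normalized over all rows. The days were compared, D4.5 minus D3.5, by lmFit and eBayes of limma 3.58.1 in R 4.3.3 (two-sided), Benjamini-Hochberg adjusted over 21740 genes; a gene passed at an adjusted p under 0.05. The number of arrays limits the precision. The fit was also run on simulated data with known changes. These data held no processing difference between the days, so nothing about the calls here is read from them. Tables and figures used Python 3.11.15, pandas 2.3.3 and matplotlib 3.10.9.

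Members and lists were chosen with earlier results of these data known. Named are all members, other adhesion receptors past 2-fold or above the level of chemosensory genes, up to 4 genes per direction of the ligand and the effector list, and the 3 genes nearest to Gpr128 and to Gpr56. Fndc4, Cd9, Col3a1, the FLRT genes, Odz1, Odz3, Odz4, Arhgef11, Arhgef12, Gna13, Elmo2, Dock1, Col4a1, Col4a2, Lama2, Prnp, Rhoa, Gna12, Gpr112, Gpr98, Tfg, Tmem45a and the markers were named outside this rule, after their values were seen. An item withheld here is counted but not reported. Alternatives were median centring, the values as deposited, constants of 1 and 64, a filter to genes over the median level, the trend and robust options of eBayes, genes with 1 row, the replicate number as a block, each array left out in turn and, added later, the median of rows. Correlations of deviations between same-numbered arrays of the days were -0.06, 0.056 and 0.096, so the numbers were not taken to pair the arrays.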

Additional observations from a re-analysis of the deposited data

How the results depend on the processing

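Over the alternatives run, the change ranged from -4.31 to -3.39 for Gpr128, 2.09 to 2.69 for Gpr56, 0.95 to 1.40 for Lphn2 and 0.87 to 1.51 for Lphn3, so the last pair was not always past 2-fold. The count of genes past both criteria, 1195, ran from 825 to 1572, and from 1134 to 1278 with an array left out. With the replicate number as a block it was 1196 and no call among the 10 genes changed. The numbers share no stated source. Among the other genes named and followed over the alternatives, Gpr98, Bai1, Arhgef1 and Flrt2 lost their calls under the block. Gna13 turned to 0.13 under median centring and Flrt2 to -0.26 in the values as deposited. Under median centring 17 effector genes were higher and 3 lower, in place of 6 and 7. In the values as deposited, which hold the difference in array medians, 4 of the 10 genes were lower in place of 2, 1 other receptor was higher and 13 lower in place of 3 and 7, and 19 ligand genes and 15 effector genes were lower in place of 4 and 7. Among genes above the median level, where fewer genes were tested, 1 of 6 members, 3 of 8 other receptors and 0 of 15 ligand genes were lower by limma's adjusted p (1 ligand gene at an unadjusted p of 0.05). With an array left out, 4 to 8 other receptors and 2 to 5 ligand genes were lower and 3 to 8 effector genes higher; 2 to 4 other receptors were higher. The fewest calls on the lists of lower receptors, lower ligands and higher effectors came without D4.5 replicate 1 or replicate 2 (4 other receptors lower and 3 effector genes higher in each, 2 ligand genes lower without replicate 1); the cause was not tested. Arrays give no read depth, and signals near the level of chemosensory genes, such as Gpr128 on D4.5 and Gpr110 on D3.5, are weak measurements.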
